A study of Mus musculus with 13 samples.

Results

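Replication-dependent histone genes supply the histone proteins that package newly copied DNA. They were taken here as the rows of the deposited gene count table whose mapped mouse symbol begins with Hist1h, Hist2h, Hist3h or Hist4h, with pseudogenes left out. The rule found 67 members among 55357 rows: 6 of linker histone H1, 18 of H2A, 18 of H2B, 12 of H3 and 13 of H4. In the mouse annotation 54 of them lie on chromosome 13, 10 on chromosome 3, 2 on chromosome 11 and 1 on chromosome 6. The rule used no measured value.

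The samples were 13 mouse tail lymphedema tissues from animals 12 weeks old, collected at day 28 after TNT, an abbreviation that the labels do not spell out. The groups were TNTProx1 (n = 6), which carries the name of Prox1, a transcription factor of lymphatic endothelium, and TNTSham (n = 7). Age, day and tissue were the same in all 13 labels, and the libraries of a group are numbered in accession order, which pairs none of them. Strain, sex and whether each library stands for its own animal were not given in the sources used here, so p-values measure the spread between these samples, which may be technical. RNA was sequenced as total RNA after removal of ribosomal RNA, a preparation that keeps transcripts with no poly(A) tail, at 29691929 to 48007392 counts per library, of which 6425 to 62643 fell on the members.

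Most members differ from other genes in how their RNA is made. Their transcripts have no introns and usually end in a short stem-loop in place of a poly(A) tail. The stem-loop binding protein Slbp holds that structure, and the U7 small nuclear RNA guides the cut behind it. Histone RNAs of this kind build up in S phase, when DNA is copied, and are degraded when copying ends. H2A, H2B, H3 and H4 form the nucleosome core, and H1 binds the linker DNA between nucleosomes. Some members can also be read through to a downstream poly(A) site, which lets non-dividing cells keep their RNA. Replacement variants such as H2afz (the variant H2A.Z) come from ordinary polyadenylated transcripts and are made throughout the cell cycle.

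The stem-loop is shown because it separates these RNAs from nearly all others in the table. The 8 letters GGNNCTTT followed directly by the 8 letters TNAGNGCC, where N is any base, were searched on the transcript strand of annotated 3′ untranslated regions. They occurred in 44 of 21876 protein-coding genes (0.201%), and 42 of these were members. Of the 67 members 51 have an annotated 3′ region of at least 40 bases, and 42 of these 51 (82.4%) held the motif, 22 to 59 bases behind the stop codon (median 32). Only 5 spellings of the 16 bases occurred, and H4 differed from the rest. All 9 H4 members with the motif have GGCC at the ends of the stem, whereas the 33 other members with it have a stem that opens GGCT and closes AGCC. Stem and loop are in capitals in the 8 sequences that follow, which are 5′ to 3′, from GENCODE M21 on GRCm38.
Hist1h1c: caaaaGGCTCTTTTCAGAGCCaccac
Hist1h1t: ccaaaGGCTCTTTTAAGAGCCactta
Hist2h2aa2: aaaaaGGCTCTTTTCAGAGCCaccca
Hist3h2a: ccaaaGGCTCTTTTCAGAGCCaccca
Hist1h2bg: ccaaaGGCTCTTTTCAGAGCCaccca
Hist1h3f: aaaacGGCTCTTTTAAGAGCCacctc
Hist1h4d: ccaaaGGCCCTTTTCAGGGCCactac
Hist4h4: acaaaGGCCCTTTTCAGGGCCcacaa
They lie in 3′ untranslated regions at chr13:23739507-23739532 (plus strand), chr13:23696520-23696545 (plus strand), chr3:96239779-96239804 (minus strand), chr11:58955167-58955192 (plus strand), chr13:23571838-23571863 (plus strand), chr13:23544927-23544952 (plus strand), chr13:23581945-23581970 (plus strand) and chr6:136803993-136804018 (minus strand), in the order printed. The same 16 bases, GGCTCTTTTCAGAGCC, occurred in 26 members of H1, H2A, H2B and H3. A match is a description of the annotated sequence, and no match says only that these letters are not in the annotated window.

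Before any comparison, TNTProx1 4, 5 and 6 stood apart from the other 10 libraries over all genes. The first principal component of the 1000 most variable genes held 69.6% of the variance and separated them, and it held 69.5% with the histone members left out. Malat1, a long RNA kept in the nucleus, was at 3410 to 3539 CPM in TNTProx1 4 to 6 and at 8979 to 16814 CPM in the other 10. CPM here is counts per 1000000 counts, with library sizes scaled by the TMM method. Provisional gene models (class TEC, often unspliced) took 0.136 to 0.193% and 0.378 to 0.745% of counts in these 2 sets. No TNTSham library fell into the first set, so what sets these 3 libraries apart cannot be told apart from the group label in them. Values are therefore given for TNTProx1 1 to 3 and 4 to 6 apart and for a fit of 10 libraries without TNTProx1 4 to 6, a split chosen with these data in view and not tested.

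Histone members as a whole took a larger share of the counts in TNTProx1 4 to 6 and not in TNTProx1 1 to 3. The share was 0.0189, 0.0213 and 0.0342% of all counts in TNTProx1 1 to 3 and 0.102, 0.112 and 0.130% in TNTProx1 4 to 6. In TNTSham 1 to 7 it was 0.0254, 0.0324, 0.0339, 0.0203, 0.0166, 0.0345 and 0.0369%. The 3 high libraries lay above all 10 others, while TNTProx1 1 to 3 lay inside the TNTSham range. The group means were 0.0698 ± 0.0504% in TNTProx1 (SD, n = 6) and 0.0286 ± 0.00784% in TNTSham (SD, n = 7), a difference of 0.0412 percentage points that was smaller than the spread within TNTProx1. Without TNTProx1 4 to 6 the difference was -0.0037 percentage points. Summed CPM over the members averaged 1206 in TNTProx1 4 to 6, which was 4.26 times the TNTSham mean of 283, and 245 in TNTProx1 1 to 3, which was 0.864 times it. In bulk tissue, more cells that make these RNAs and more of the RNA per cell cannot be told apart.

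**Figure D1:**
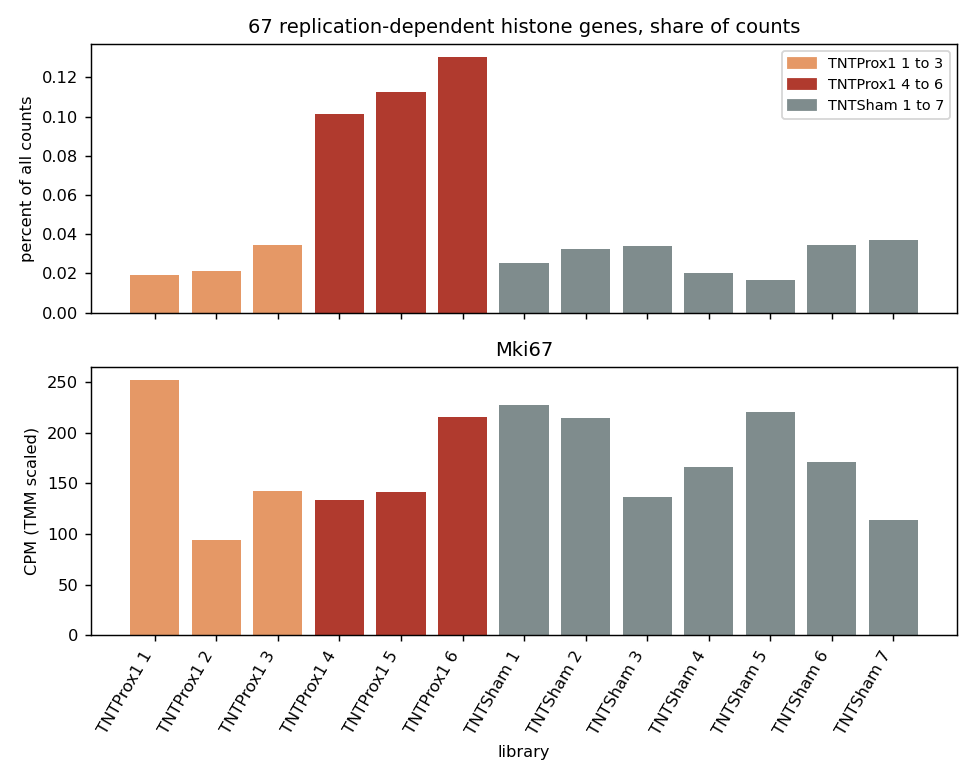
The upper bars give the percent of all counts on the 67 histone members in each library, and the lower bars give Mki67 in TMM-scaled CPM in the same libraries, TNTProx1 left of TNTSham. TNTProx1 4 to 6 stood at 0.102 to 0.130% against 0.0166 to 0.0369% in the other 10, while their Mki67, at 133 to 216 CPM, lay inside the range of the other 10.

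Gene by gene, 0 of the 65 members tested passed the edgeR quasi-likelihood test at an adjusted p under 0.05, with 0% of all 22876 genes called higher and 0% called lower. The smallest adjusted p of a member was 0.123, and over all genes it was 0.0848. At an unadjusted p under 0.05, 60 of 65 members were higher in TNTProx1 and 0 were lower, against 8.33% of all genes higher and 3.92% lower. The 60 comprised 4 of 6 H1, 17 of 17 H2A, 14 of 17 H2B, 12 of 12 H3 and 13 of 13 H4 members tested, and the median log2 fold changes of these subfamilies were 0.74, 2.82, 1.49, 1.92 and 1.91. Of the 65 log2 fold changes 63 were above 0, with a median of 1.89 and a range of -0.15 to 3.18, while the median over all genes was -0.02. The DESeq2 Wald test on the same genes called 33 members higher and 0 lower (11 H2A, 6 H2B, 9 H3 and 7 H4), against 1.98% of all genes called higher and 0.73% called lower. DESeq2 gave no adjusted p for some of the members, such as Hist1h2ai and Hist1h2ao, so these could not be called. Members described further on that DESeq2 called included Hist1h2af (DESeq2 adjusted p 0.00244), Hist1h3b (0.0117), Hist2h2aa1 (0.0133), Hist1h2bn (0.0154) and Hist1h4b (0.0156). Others described there were not called, such as Hist1h4c (DESeq2 adjusted p 0.0773), Hist1h4d (0.107), Hist3h2a (0.158) and Hist1h1c (0.249). Without TNTProx1 1 the edgeR test called 30 members higher, against 2.07% of all genes.

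These values rested on TNTProx1 4 to 6. In the fit of 10 libraries the members' median log2 fold change was -0.15, in a range of -1.01 to 0.41, with 13 members above 0 and 52 below. At an unadjusted p under 0.05 in that fit 2 members were lower and 0 were higher, against 12.1% of all genes lower and 9.34% higher, and 0% of genes passed at an adjusted p under 0.05. The 2 were Hist1h1a (log2 fold change -0.64 ± 0.24 SE, edgeR adjusted p = 0.154) and Hist2h2bb (-0.61 ± 0.25 SE, adjusted p = 0.178). Each of TNTProx1 4, 5 and 6 was above all 10 other libraries for 61 of the 65 members (93.8%), a pattern that 10.5% of all genes tested showed. The 4 members without it were Hist1h1t, Hist1h2bh, Hist2h2bb and Hist2h2be. All 6 TNTProx1 libraries were above all 7 TNTSham libraries for 0 of the 65 members, against 0.398% of all genes. With the TEC share as a covariate, edgeR called 2.38% of all genes and 0 members. At an unadjusted p under 0.05, 1 member was higher and 2 were lower, against 7.57% of all genes higher and 11% lower, and the members' median was 0.31. limma voom with quality weights, which gives libraries unequal weight, called 0 members, against 1.86% of all genes called higher. It had 2 of 65 members higher at an unadjusted p under 0.05, against 9.49% of all genes, and a median of 0.58.

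**Figure D2:**
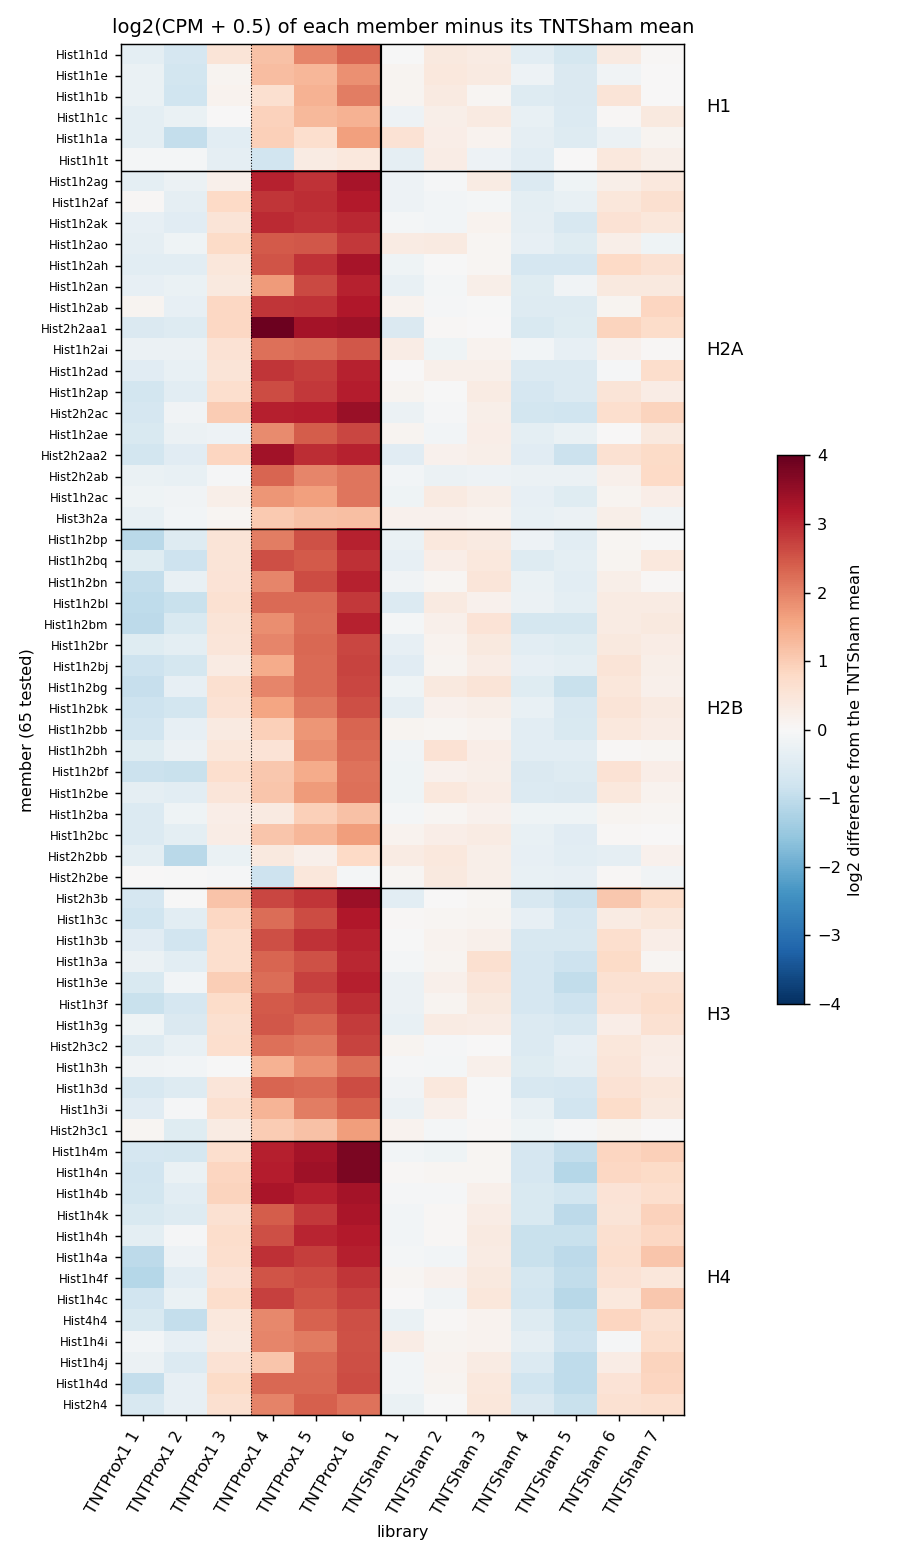
Each row is 1 of the 65 members tested, grouped by subfamily and ordered by the ratio of TNTProx1 4 to 6 over TNTSham, and each column is a library, TNTProx1 left of TNTSham. Colour is log2(CPM + 0.5) minus the member's mean over TNTSham. The red block under TNTProx1 4 to 6 spans nearly every row, is strongest in H2A and palest in H1, and is missing in Hist1h1t, Hist2h2be and, in large part, Hist2h2bb.

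H1, the linker histones, had the smallest ratio of TNTProx1 4 to 6 over TNTSham in summed CPM among the 5 subfamilies. The summed H1 level was 83.8, 75.1 and 112 CPM in TNTProx1 1 to 3 and 215, 275 and 357 CPM in TNTProx1 4 to 6, against 71.9, 115 and 134 CPM (lowest, median and highest) in the 7 TNTSham libraries. TNTProx1 4 to 6 were again the highest 3, at 2.55 times the TNTSham mean. Hist1h1c (ENSMUSG00000036181.3), a linker histone that also gives polyadenylated RNA, had 40.7, 44.3 and 53.8 CPM in TNTProx1 1 to 3, 102, 132 and 142 CPM in TNTProx1 4 to 6 and 36.5, 55.5 and 70.7 CPM (lowest, median and highest) in TNTSham. Its log2 fold change was 0.64 ± 0.29 (SE) at an edgeR adjusted p of 0.397. Hist1h1e (ENSMUSG00000051627.4), a linker histone of most cell types, had 15.7, 11.2 and 20.5 CPM in TNTProx1 1 to 3 and 45.2, 48.1 and 68.7 CPM in TNTProx1 4 to 6, against 12.5, 19 and 25.5 CPM (lowest, median and highest) in TNTSham. This amounted to a log2 fold change of 0.85 ± 0.35 (SE) at an edgeR adjusted p of 0.340. Hist1h1d (ENSMUSG00000052565.8) had the smallest p of the H1 members, with 8.10, 6.48 and 15.5 CPM in TNTProx1 1 to 3, 24.8, 43 and 55.3 CPM in TNTProx1 4 to 6 and 6.44, 11.1 and 14.2 CPM (lowest, median and highest) in TNTSham, a log2 fold change of 1.21 ± 0.43 (SE) at an edgeR adjusted p of 0.257. In each of these 3 genes the groups overlapped through TNTProx1 1 to 3. Hist1h1t, a linker histone of male germ cells, was at 0 to 0.658 CPM in TNTProx1 4 to 6, 0.176 to 0.311 CPM in TNTProx1 1 to 3 and 0.146 to 0.655 CPM in TNTSham, so no set stood apart.

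H2A, which pairs with H2B in the nucleosome core, had the largest ratio of TNTProx1 4 to 6 over TNTSham among the 5 subfamilies. Its summed level was 14.6, 16.6 and 32.7 CPM in TNTProx1 1 to 3 and 168, 154 and 179 CPM in TNTProx1 4 to 6, against 13.9, 23.4 and 30.8 CPM (lowest, median and highest) in the 7 TNTSham libraries. The mean of TNTProx1 4 to 6 was 7.42 times that of TNTSham, and the median member stood at 13.1 times its TNTSham mean. Several H2A members had low TNTSham means, such as 0.242 CPM for Hist1h2ai and 0.372 CPM for Hist1h2af. On the CPM scale H4 was farther apart, with means of 327 in TNTProx1 4 to 6 and 49.2 in TNTSham. For H2A these means were 167 and 22.5 CPM. Hist2h2aa2 (ENSMUSG00000063954.8) and Hist2h2aa1 (ENSMUSG00000064220.7), neighbours with the same coding sequence, had 34.7, 26.4 and 28.4 CPM and 35.6, 23.3 and 24.4 CPM in TNTProx1 4 to 6. In TNTProx1 1 to 3 they had 1.58, 2.03 and 5.77 CPM and 1.11, 1.16 and 3.69 CPM, and in TNTSham 1.40 to 5.32 CPM and 1.05 to 3.90 CPM. Their log2 fold changes were 2.37 ± 0.65 (SE) at an edgeR adjusted p of 0.145 and 2.84 ± 0.74 (SE) at an edgeR adjusted p of 0.131, and the counting rule for reads shared by the pair was not given in the sources used here. Hist1h2af (ENSMUSG00000061991.3) had the smallest p of all members, with 0.362, 0.154 and 0.966 CPM in TNTProx1 1 to 3, 5.59, 5.98 and 7.07 CPM in TNTProx1 4 to 6 and 0.146, 0.276 and 0.828 CPM (lowest, median and highest) in TNTSham. Its log2 fold change was 3.18 ± 0.78 (SE) at an edgeR adjusted p of 0.123, and with 10 libraries it was 0.41 ± 0.62 (SE). At the low end of H2A stood Hist3h2a (ENSMUSG00000078851.5), a member listed as polyadenylated, with 7.85, 8.95 and 10.3 CPM in TNTProx1 1 to 3, 20.7, 22.6 and 23 CPM in TNTProx1 4 to 6 and 7.77, 10.7 and 11.5 CPM (lowest, median and highest) in TNTSham. The difference was 0.66 ± 0.26 (SE) at an edgeR adjusted p of 0.300 on the log2 scale. Hist1h2aa, a testis-type H2A, was below the expression filter and not tested: it had 1.40, 1.57 and 1.76 CPM in TNTProx1 4 to 6 and at most 0.117 CPM in TNTProx1 1 to 3 and 0.196 CPM in TNTSham, of which 4 libraries had no count.

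**Figure D3:**
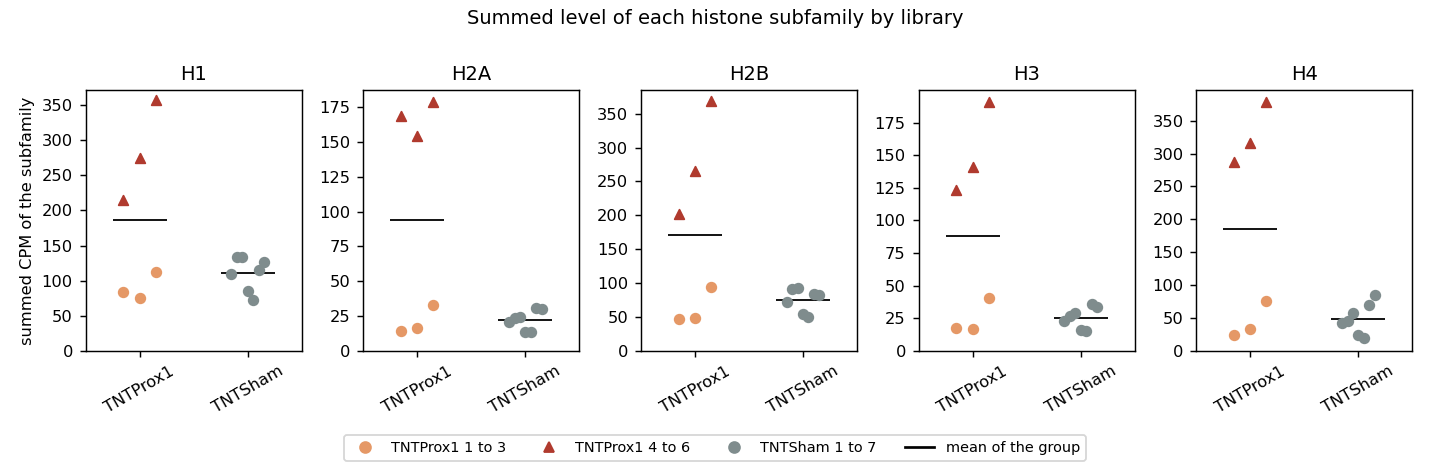
Points give the summed CPM of each subfamily in each library, TNTProx1 left of TNTSham, with triangles for TNTProx1 4 to 6 and black lines for group means. In every subfamily the 3 triangles lie above all 10 circles, and most circles of TNTProx1 1 to 3 lie among the TNTSham values. The exceptions are the H2A, H2B and H3 sums of TNTProx1 3, just above the TNTSham range, and the H2B sums of TNTProx1 1 and 2, just below it.

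H2B lay between H1 and H2A on this ratio. The summed level was 46.6, 49.2 and 94.7 CPM in TNTProx1 1 to 3 and 201, 265 and 368 CPM in TNTProx1 4 to 6, against 49.6, 82.5 and 93.2 CPM (lowest, median and highest) in the 7 TNTSham libraries, and TNTProx1 4 to 6 averaged 3.69 times the TNTSham mean. Hist1h2bc (ENSMUSG00000018102.6), a member with polyadenylated transcripts, had 10.4, 11.7 and 18.9 CPM in TNTProx1 1 to 3, 33.6, 39.2 and 50.1 CPM in TNTProx1 4 to 6 and 11, 15.9 and 19.4 CPM (lowest, median and highest) in TNTSham. On the log2 scale the difference was 0.80 ± 0.32 (SE) at an edgeR adjusted p of 0.322. Hist1h2bg (ENSMUSG00000058385.9) had 24.4, 30.4 and 41.1 CPM in TNTProx1 4 to 6, above 2.90 to 9.63 CPM in TNTProx1 1 to 3 and 2.97 to 8.80 CPM in TNTSham, with a log2 fold change of 1.57 ± 0.51 (SE) at an edgeR adjusted p of 0.217. Hist1h2bn (ENSMUSG00000095217.2), the H2B member of smallest p, had 13.6, 21.5 and 30.3 CPM in TNTProx1 4 to 6, 1.37 to 4.77 CPM in TNTProx1 1 to 3 and 2.23 to 4.58 CPM in TNTSham, with a log2 fold change of 1.95 ± 0.56 (SE) at an edgeR adjusted p of 0.163. A pair of H2B genes from the chromosome 3 cluster did not follow the rest. Hist2h2be (ENSMUSG00000068854.8) had 5.36, 5.25 and 5.06 CPM in TNTProx1 1 to 3, 2.77, 7.31 and 4.98 CPM in TNTProx1 4 to 6 and 4.05, 5.5 and 7.13 CPM (lowest, median and highest) in TNTSham, a log2 fold change of -0.07 ± 0.21 (SE) at an edgeR adjusted p of 0.922 with TNTProx1 4 below the TNTSham range and TNTProx1 5 just above it. Hist2h2bb (ENSMUSG00000105827.2) had 9.06, 5.40 and 9.78 CPM in TNTProx1 1 to 3, 15.7, 13.8 and 21.2 CPM in TNTProx1 4 to 6 and 8.77, 13.6 and 16 CPM (lowest, median and highest) in TNTSham, a log2 fold change of 0.03 ± 0.27 (SE) at an edgeR adjusted p of 0.978, whose sign turned under several other settings. Hist3h2ba (ENSMUSG00000056895.5) was at or below 0.588 CPM in every library and was not tested.

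H3, the histone that carries many of the known marks on its tail, had a summed level of 17.8, 16.7 and 40.8 CPM in TNTProx1 1 to 3 and 123, 141 and 191 CPM in TNTProx1 4 to 6, against 15.2, 26.6 and 36.1 CPM (lowest, median and highest) in the 7 TNTSham libraries. TNTProx1 4 to 6 averaged 5.92 times the TNTSham mean. Hist2h3c1 (ENSMUSG00000093769.5) had 14.6, 16.3 and 23.5 CPM in TNTProx1 4 to 6, 4.91 to 8.99 CPM in TNTProx1 1 to 3 and 6.16 to 7.80 CPM in TNTSham. Its log2 fold change of 0.85 ± 0.28 (SE) at an edgeR adjusted p of 0.221 was the smallest of the 12 H3 members. Hist1h3f (ENSMUSG00000100210.3) had 19.6, 21.7 and 27.9 CPM in TNTProx1 4 to 6, 1.48 to 5.59 CPM in TNTProx1 1 to 3 and 1.56 to 5.57 CPM in TNTSham, a log2 fold change of 1.91 ± 0.61 (SE) at an edgeR adjusted p of 0.197. Hist1h3b (ENSMUSG00000069267.3) and Hist1h3c (ENSMUSG00000069310.5) reached 15.2 to 21.7 and 7.45 to 15 CPM in TNTProx1 4 to 6, against 1.17 to 3.70 and 0.556 to 1.81 CPM in TNTSham. Their log2 fold changes were 2.20 ± 0.62 (SE) at an edgeR adjusted p of 0.153 and 2.28 ± 0.64 (SE) at an edgeR adjusted p of 0.153. All 12 H3 members were above 0 with 13 libraries, and 6 of 12 were with 10 libraries.

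H4, the most conserved core histone, had a summed level of 25, 33.8 and 75.2 CPM in TNTProx1 1 to 3 and 287, 317 and 378 CPM in TNTProx1 4 to 6, against 19.6, 45.4 and 84.9 CPM (lowest, median and highest) in the 7 TNTSham libraries. The mean of TNTProx1 4 to 6 was 6.65 times the TNTSham mean, and the 13 single members stood at 4.57 to 12.7 times their TNTSham means. Hist1h4d (ENSMUSG00000061482.8) had 51.9, 52.2 and 65.7 CPM in TNTProx1 4 to 6, 5.10, 8.05 and 17.8 CPM in TNTProx1 1 to 3 and 4.85, 11.1 and 19.2 CPM (lowest, median and highest) in TNTSham, with a log2 fold change of 1.56 ± 0.53 (SE) at an edgeR adjusted p of 0.236. Hist1h4h (ENSMUSG00000060981.8) had 35.1, 49.4 and 53.4 CPM in TNTProx1 4 to 6, 4.12 to 9.34 CPM in TNTProx1 1 to 3 and 2.73 to 10.2 CPM in TNTSham, and Hist1h4c (ENSMUSG00000060678.6) had 37.8, 32.4 and 37.6 CPM in TNTProx1 4 to 6 against 2.17 to 11.7 CPM in TNTSham. Their log2 fold changes were 2.10 ± 0.58 (SE) at an edgeR adjusted p of 0.146 and 1.81 ± 0.58 (SE) at an edgeR adjusted p of 0.202. Hist1h4b (ENSMUSG00000069266.6), the H4 member of smallest p, had 27.2, 24 and 28.1 CPM in TNTProx1 4 to 6, 1.24 to 4.83 CPM in TNTProx1 1 to 3 and 1.22 to 4.07 CPM in TNTSham, with a log2 fold change of 2.52 ± 0.66 (SE) at an edgeR adjusted p of 0.132. The stem-loop letters were not found in its annotated 3′ region of 77 bases. Hist4h4 (ENSMUSG00000096010.3), alone on chromosome 6 and listed as polyadenylated, had 1.37, 0.951 and 3.31 CPM in TNTProx1 1 to 3, 10.2, 14.2 and 16.6 CPM in TNTProx1 4 to 6 and 1.03, 2.44 and 4.58 CPM (lowest, median and highest) in TNTSham, a log2 fold change of 1.61 ± 0.59 (SE) at an edgeR adjusted p of 0.276.

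**Figure D4:**
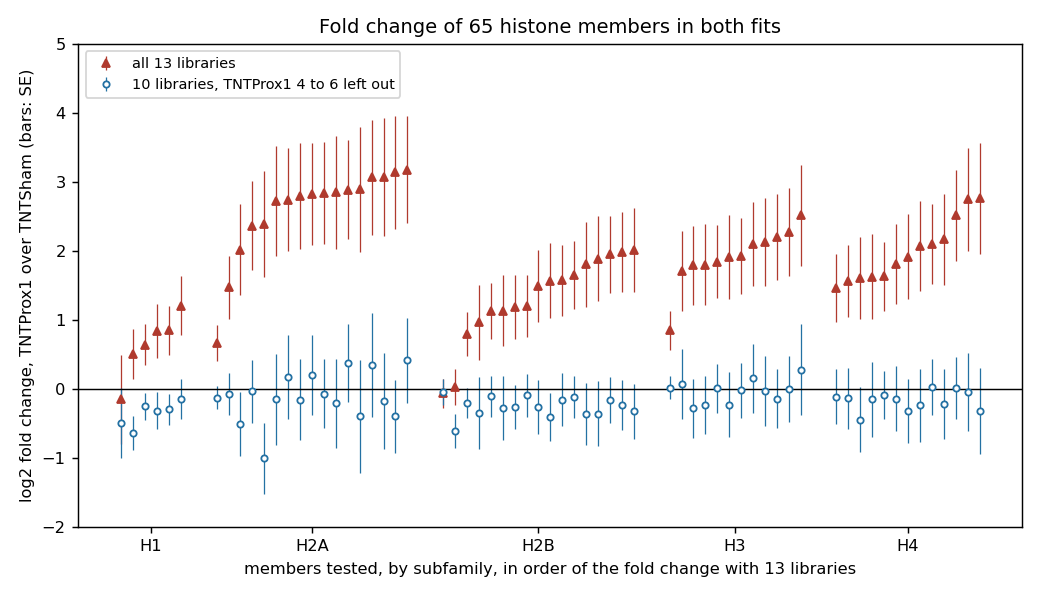
Triangles give the log2 fold change of each of the 65 members tested, TNTProx1 over TNTSham, with all 13 libraries, and open circles give it without TNTProx1 4 to 6. Bars are standard errors derived from the edgeR fold change and F statistic. The triangles range from -0.15 to 3.18 with a median of 1.89, and the circles from -1.01 to 0.41 with a median of -0.15.

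The mix of subfamilies also differed between the 2 sets of libraries. Of all histone counts H1 made up 21.6 to 24.2% in TNTProx1 4 to 6, against 31.5 to 44.6% in TNTProx1 1 to 3 and 34.2 to 43.8% in TNTSham. H4 made up 25.7 to 28.8% in TNTProx1 4 to 6, against 13.3 to 21.1% in TNTProx1 1 to 3 and 11.5 to 23.7% in TNTSham. The H2A share was 12.1 to 16.9% in TNTProx1 4 to 6, against 7.77 to 9.20% in TNTProx1 1 to 3 and 7.15 to 9.20% in TNTSham, while H3 took 12.2 to 13% in TNTProx1 4 to 6, 8.71 to 11.5% in TNTProx1 1 to 3 and 8.19 to 10.8% in TNTSham. For H1, H2A, H3 and H4 the ranges of TNTProx1 4 to 6 did not overlap those of the other 10 libraries. H2B, with 20.2 to 25% in TNTProx1 4 to 6, 24.8 to 26.6% in TNTProx1 1 to 3 and 23.1 to 29.1% in TNTSham, did overlap. These are shares of counts, not of molecules, since counts are not divided by transcript length.

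At the median, members listed as also giving polyadenylated RNA stood closer to TNTSham than the others. The 6 were Hist1h1c, Hist1h2bc, Hist2h2be, Hist3h2a, Hist3h2ba and Hist4h4, a list chosen by knowledge of the genes with earlier results of these data known. Over the 5 that were tested, the median ratio of TNTProx1 4 to 6 over TNTSham was 2.28-fold, in a range of 0.937 to 5.35-fold. For the 60 other members tested it was 6.70-fold, in a range of 1.09 to 17.0-fold. A low ratio was not particular to the list. The 6 H1 members, of which only Hist1h1c is listed, had a median of 2.52-fold. These values describe counts, and the difference between listed and other members was not tested. The stem-loop letters were found in 4 of these 6, so the annotated stem-loop did not divide the members in the same way: the median log2 ratio was 2.63 over the 41 tested members with the letters and 2.42 over the 9 without them and with an annotated 3′ region of at least 40 bases.

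Mki67, a gene of dividing cells, did not separate TNTProx1 4 to 6 from the rest. It had 252, 94.3 and 143 CPM in TNTProx1 1 to 3 and 133, 141 and 216 CPM in TNTProx1 4 to 6. In TNTSham 1 to 7 it had 228, 214, 137, 166, 220.3, 171 and 114 CPM. The mean was 163 ± 58.7 CPM in TNTProx1 (SD, n = 6) and 179 ± 43.9 CPM in TNTSham (SD, n = 7), and the groups overlapped. Its log2 fold change was -0.13 ± 0.22 (SE) at an edgeR adjusted p of 0.838, and the difference of mean log2(CPM + 0.5) was -0.16, with p = 0.502 over all 1716 splits (exact permutation test, two-sided). That fold change was the lowest of the 25 genes in the G2 and mitosis list given below, of which 22 were above 0. Mki67 therefore does not stand for that list. Summed histone CPM was 6.82 to 8.16 times the Mki67 CPM in TNTProx1 4 to 6. The ratio was 0.744 to 2.49 in TNTProx1 1 to 3 and 0.773 to 3.14 in TNTSham, so the 3 libraries lay above all 10 others on the ratio as well.

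Other genes of DNA replication and division had much smaller fold changes than the histone members. The S phase and replication list, which holds polymerase subunits, licensing factors and nucleotide enzymes, had 36 members tested, 0 called by edgeR and 0 at an unadjusted p under 0.05. Its median log2 fold change was 0.08, and its median log2 ratio of TNTProx1 4 to 6 over TNTSham was 0.25, against 2.72 for the histone members. TNTProx1 4 to 6 were above all 10 other libraries for 9 of the 36 genes, against 10.5% of all genes. Pold1, the catalytic subunit of polymerase delta, had 10.1, 12.7 and 15.6 CPM in TNTProx1 4 to 6, 5.75 to 9.05 CPM in TNTProx1 1 to 3 and 5.81 to 9.93 CPM in TNTSham, with a log2 fold change of 0.44 ± 0.22 (SE) at an edgeR adjusted p of 0.443. Fen1, the flap nuclease of Okazaki fragment joining, had 10.4 to 19 CPM in TNTProx1 4 to 6, 8.74 to 13.2 CPM in TNTProx1 1 to 3 and 8.74 to 11.1 CPM in TNTSham, with a log2 fold change of 0.32 ± 0.17 (SE) at an edgeR adjusted p of 0.465. The list of 25 G2 and mitosis genes, which includes Mki67, had a median of 0.36 and a median log2 ratio of 0.72. Of the 25, 9 were above all other libraries in TNTProx1 4 to 6. With 0 genes called, 1 was higher at an unadjusted p under 0.05, against 8.33% of all genes. The 1 was Aurka, a kinase of the spindle poles, with 6.98 to 9.17 CPM in TNTProx1 4 to 6, 3.63 to 6.24 CPM in TNTProx1 1 to 3 and 3.57 to 5.43 CPM in TNTSham, with a log2 fold change of 0.46 ± 0.21 (SE) at an edgeR adjusted p of 0.402. Ccnb2, a cyclin of mitotic entry, had 16.6 to 18.1, 6.20 to 9.17 and 6.40 to 11.4 CPM in the same 3 sets, with a log2 fold change of 0.54 ± 0.26 (SE) at an edgeR adjusted p of 0.415.

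Replacement histone variants were in part high in the same 3 libraries. Of the 11 listed and tested, 0 were called, 2 were higher at an unadjusted p under 0.05 (8.33% of all genes), and 6 had TNTProx1 4 to 6 above all 10 other libraries (10.5% of all genes). Their summed level was 1064 to 1080.2 CPM in TNTProx1 4 to 6, 597 to 703 CPM in TNTProx1 1 to 3 and 723 to 883 CPM in TNTSham. H2afz, the variant H2A.Z, had 105, 90.4 and 86.4 CPM in TNTProx1 4 to 6, 31.9, 36.9 and 41.3 CPM in TNTProx1 1 to 3 and 33, 42.8 and 52.4 CPM (lowest, median and highest) in TNTSham, a log2 fold change of 0.64 ± 0.26 (SE) at an edgeR adjusted p of 0.327. H1fx, a linker histone made outside S phase as well, had 0.635 to 1.24 CPM in TNTProx1 4 to 6, 0.0777 to 0.673 CPM in TNTProx1 1 to 3 and 0.159 to 0.527 CPM in TNTSham, with a log2 fold change of 1.26 ± 0.54 (SE) at an edgeR adjusted p of 0.368. The median log2 fold change of the 11 was 0.08.

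Genes that make, bind or degrade histone RNA stayed near 0. Of 24 listed, 0 were called, and the median log2 fold change was 0.04. At an unadjusted p under 0.05, 1 was higher and 1 lower, against 8.33% of all genes higher and 3.92% lower. Slbp had 22.6, 17.3 and 13.8 CPM in TNTProx1 1 to 3, 16.4, 13.9 and 20.4 CPM in TNTProx1 4 to 6 and 15.9, 18 and 19.1 CPM (lowest, median and highest) in TNTSham, a log2 fold change of -0.01 ± 0.12 (SE) at an edgeR adjusted p of 0.971; its values overlapped in all 3 sets. Cstf2t, a subunit variant of the cleavage stimulation factor, was the higher one, with 61, 46.8 and 53.5 CPM in TNTProx1 4 to 6, 45.3, 42.2 and 39.6 CPM in TNTProx1 1 to 3 and 35.3 to 41.7 CPM in TNTSham, with a log2 fold change of 0.30 ± 0.10 (SE) at an edgeR adjusted p of 0.220. Tut7, a uridylyl transferase that tags histone RNA for decay, was the lower one, with 186 to 246 CPM in TNTProx1 and 214 to 245 CPM in TNTSham, with a log2 fold change of -0.19 ± 0.08 (SE) at an edgeR adjusted p of 0.386. Among 17 histone chaperones, which carry histones to DNA, 0 were called and 0 had an unadjusted p under 0.05, at a median of 0.01. The smallest p belonged to Rbbp7, a histone-binding subunit of several complexes, and Daxx, a chaperone of the variant H3.3, with log2 fold changes of 0.24 ± 0.13 (SE) at an edgeR adjusted p of 0.483 and 0.23 ± 0.13 (SE) at an edgeR adjusted p of 0.504.

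An RNA outside the histone genes that was high in the same libraries was Rpph1, the RNA component of ribonuclease P, a structured transcript with no poly(A) tail. It had 30.6, 213 and 302 CPM in TNTProx1 1 to 3 and 6164, 3352 and 4708 CPM in TNTProx1 4 to 6. In TNTSham 1 to 7 it had 261, 254, 477, 165, 90.4, 609 and 1346 CPM. Rpph1 had a log2 fold change of 2.43 ± 0.94 (SE) at an edgeR adjusted p of 0.300, and TNTProx1 4 to 6 lay above all other libraries. Across the 10 other libraries, summed histone CPM and Rpph1 CPM had a Spearman rho of 0.92 and a Pearson r of 0.67 (n = 10), and r was 0.82 without the 2 libraries farthest from the median. With Malat1 the rho was -0.73 (r -0.80, and -0.70 without the 2 farthest), and with the TEC share it was -0.55 (r -0.64, and -0.73). With Mki67 it was -0.52 (r -0.35, and -0.58). These 4 relations, of 8 computed (the others used core histones alone), are descriptions of 10 libraries whose values share 1 total count per library, and the part of library preparation or RNA quality in them was not tested. Of 9 small structured RNAs listed, 5 were tested. Of these, 1 was above all other libraries in TNTProx1 4 to 6, against 10.5% of all genes tested. Rn7sk, Terc and Scarna13 were not found by symbol. Rmrp matched more than 1 row and was left out, so it was not compared with Rpph1. Scarna6, a Cajal body RNA, had 2.08 to 4.21 CPM in TNTProx1 4 to 6, 1.32 to 2.16 CPM in TNTProx1 1 to 3 and 1.99 to 4.35 CPM in TNTSham. Of the 5 nuclear long non-coding RNAs, 0 were above 0, and Malat1 had a log2 fold change of -0.40 ± 0.40 (SE) at an edgeR adjusted p of 0.717. Xist, the RNA of the inactive X chromosome, was at 0 to 0.283 CPM in TNTProx1, 2095 CPM in TNTSham 1 and at most 2.01 CPM in the other TNTSham libraries.

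Among the members, the ratio of TNTProx1 4 to 6 over TNTSham rose with the GC content of the coding sequence and with its likeness to other members. The Spearman rho across the 65 tested members was 0.72 with coding GC content, 0.55 with the share of 35-base windows found in another member's coding sequence and -0.42 with the length of the annotated 3′ region. These genes share sequence and libraries, so the values describe them and carry no p. Coding GC content ran from 55.4% to 70.0%, with subfamily medians of 59.4% in H1, 62.5% in H2B, 65.1% in H4, 66.9% in H3 and 68.8% in H2A, so GC content and subfamily cannot be told apart. Within H2A the rho with GC content was 0.53, within H4 0.41, within H2B 0.15, within the 6 H1 members 0.66 and within H3 -0.18. With the length of the annotated 3′ region the rho was 0.60 within H1, -0.54 within H2A, -0.11 within H2B, -0.25 within H3 and -0.81 within H4. With the share of windows found in another member it was 0.93 within H1, 0.29 within H2A, 0.41 within H2B, 0.19 within H3 and 0.75 within H4. Other genes of the same GC content had much smaller ratios: from 65% GC upward the median log2 ratio was 3.27 over 34 members and 0.34 over 378 other genes, whose 90th percentile was 1.07. From 60 to 65% it was 2.33 over 24 members and 0.33 over 1609 other genes, and from 55 to 60% it was 1.13 over 7 members and 0.17 over 4177 others. Across 15949 other genes the rho with GC content was 0.30.

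**Figure D5:**
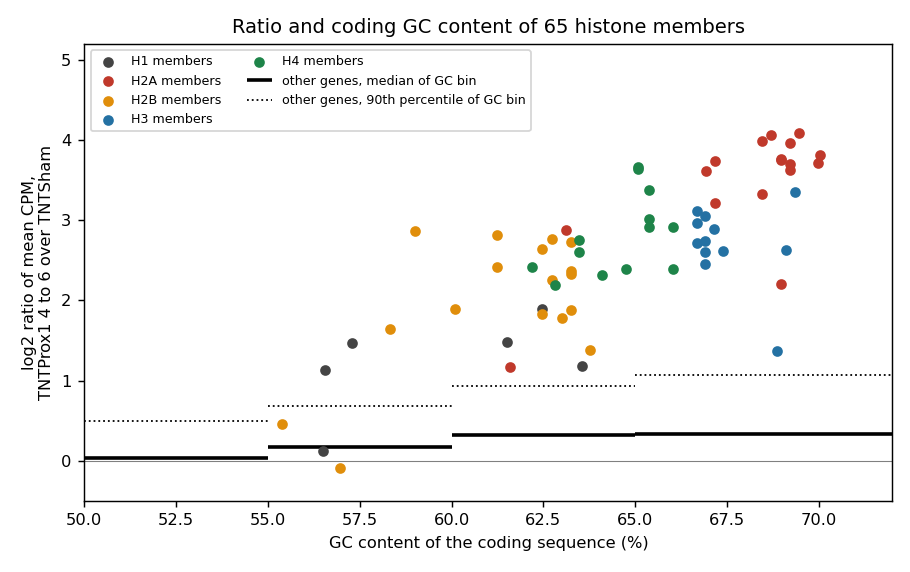
Each point is a tested member, placed by the GC content of its coding sequence in percent and by the log2 ratio of mean CPM in TNTProx1 4 to 6 over TNTSham. Thick lines give the median of all other genes in the same GC bin and dotted lines their 90th percentile: 62 of 65 members lie above the dotted line of their bin, and the points climb with GC content, at a rho of 0.72.

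Members resemble one another, which limits what a count per gene means. In 34 of the 67, at least 80% of the 35-base windows of the coding sequence occur in another member, and 8 members have the coding sequence of another one. The 8 tested members with under 20% of such windows, to which reads can be assigned with least doubt, had log2 ratios of TNTProx1 4 to 6 over TNTSham from -0.09 to 2.42 with a median of 1.15. Among them Hist2h4 stood at 2.19 and Hist4h4 at 2.42, and Hist1h1b at 1.46. Single values of members with near-identical copies are uncertain, and a sum over a subfamily does not depend on how reads were split within it. The sum would still lack reads dropped for mapping to several places, and would hold repeatedly any read counted at each place. It also leaves out reads given to histone pseudogenes.

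Promoter sequence is shown for an H2B and an H4 gene because the members were high in the same 3 libraries while their subfamilies differ in the motifs upstream. Of the 67 members 61 were found in the RefSeq promoter table. The octamer ATTTGCAT occurred within 250 bases upstream of the start, on either strand, in 1.6% of all 32851 promoters, in 7 of 17 H2A and 7 of 16 H2B members, and in 0 of 6 H1, 0 of 10 H3 and 0 of 12 H4 members. CCAAT occurred in 33.8% of all promoters, in all 6 H1, 17 H2A and 16 H2B members, and in 8 of 10 H3 and 3 of 12 H4 members. TATAAA occurred in 12.4% of all promoters and in 4 of 6 H1, 7 of 17 H2A, 8 of 16 H2B, 4 of 10 H3 and 6 of 12 H4 members. These motifs do not overlap in the sequences printed, which are the 250 bases upstream of the start at chr13:23571150-23571399 (plus strand) for Hist1h2bg and chr13:23581318-23581567 (plus strand) for Hist1h4d, from RefSeq on GRCm38.p6, with any of the 3 motifs in capitals.
Hist1h2bg: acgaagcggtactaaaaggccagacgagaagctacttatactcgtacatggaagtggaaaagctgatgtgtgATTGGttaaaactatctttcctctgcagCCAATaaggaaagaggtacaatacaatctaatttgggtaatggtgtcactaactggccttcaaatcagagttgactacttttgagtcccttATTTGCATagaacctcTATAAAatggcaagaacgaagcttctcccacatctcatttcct
Hist1h4d: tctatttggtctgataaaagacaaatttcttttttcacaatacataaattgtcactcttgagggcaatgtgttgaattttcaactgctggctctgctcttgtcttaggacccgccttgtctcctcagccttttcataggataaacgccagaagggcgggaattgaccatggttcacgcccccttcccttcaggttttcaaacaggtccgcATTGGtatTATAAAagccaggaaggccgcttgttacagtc
In Hist1h2bg the octamer begins 59 bases upstream of the start and TATAAA 43 bases upstream. Hist1h4d has ATTGG, the CCAAT letters on the other strand, 40 bases upstream and TATAAA 32 bases upstream. It is among the 3 of 12 H4 members with CCAAT and so does not stand for most of them. The median log2 ratio of TNTProx1 4 to 6 over TNTSham was 3.47 over 6 tested H2A members with the octamer and 3.75 over 10 without, and 1.90 over 7 H2B members with it and 2.57 over 8 without. A match is not a site of factor binding.

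Markers of blood cell precursors were low in all sets apart from Ebf1. The 12 erythroid precursor markers summed to 8.58 to 11.1 CPM in TNTProx1 4 to 6, 6.21 to 17.7 CPM in TNTProx1 1 to 3 and 5.11 to 12.1 CPM in TNTSham, with 5 of 12 passing the expression filter. The 11 granulocyte precursor markers summed to 3.31 to 7.12 CPM in TNTProx1 4 to 6, 4.39 to 6.25 CPM in TNTProx1 1 to 3 and 1.46 to 22.8 CPM in TNTSham, and the 11 markers of the B lineage to 85.1 to 95.5 CPM in TNTProx1 4 to 6, 129 to 193 CPM in TNTProx1 1 to 3 and 105 to 151 CPM in TNTSham. The other 2 lists overlapped between sets, while B lineage sums were lower in TNTProx1 4 to 6 than in all other libraries, and 77.1 to 88.7 CPM of them came from Ebf1, a factor that stromal cells also use. In TNTProx1 4 to 6 the markers Igll1 and Rag2 of the B lineage, Ms4a3 and Fcnb of granulocyte precursors and Tspo2 of erythroid precursors were at 0. These were picked for that value and do not stand for their lists. Of the 5 erythroid markers tested by edgeR, 4 had a log2 fold change above 0, with a median of 0.50. The same held for 2 of 5 granulocyte markers (median -0.51) and 0 of 5 B lineage markers (median -0.13). Skin markers were present as the tissue label implies. The 7 basal keratinocyte markers, a layer of dividing skin cells, summed to 9586 to 10529.5 CPM in TNTProx1 4 to 6, 1523 to 6564 CPM in TNTProx1 1 to 3 and 5894 to 9550.3 CPM in TNTSham, so that the lowest of TNTProx1 4 to 6 was just above the highest of the other 10. Over the 7 markers the median log2 ratio of TNTProx1 4 to 6 over TNTSham was 0.09, and in the edgeR test 6 of 7 had a log2 fold change below 0. Of the 7, Krt5 and Krt14, keratins of that layer, had TNTProx1 4 to 6 above all other libraries, and the other 5 overlapped. That pattern occurred in 10.5% of all genes tested. Krt5 and Krt14 had 3311 to 3710.5 and 4457 to 5198 CPM in TNTProx1 4 to 6. In the other 10 libraries they had 508 to 3138 and 479 to 4449 CPM. The 6 suprabasal markers summed to 20421 to 48797 CPM in TNTProx1 4 to 6, 4551 to 24974 CPM in TNTProx1 1 to 3 and 20724 to 35203 CPM in TNTSham, and the 7 hair matrix and shaft markers to 213 to 413 CPM in TNTProx1 4 to 6, 126 to 302 CPM in TNTProx1 1 to 3 and 160.3 to 534 CPM in TNTSham. Fibroblast markers summed to 44064 to 74143 CPM in TNTProx1 4 to 6, 44697 to 119296 CPM in TNTProx1 1 to 3 and 32814 to 58769 CPM in TNTSham, macrophage markers to 1135 to 1266 CPM in TNTProx1 4 to 6, 1013 to 1420.2 CPM in TNTProx1 1 to 3 and 874 to 1479 CPM in TNTSham and T cell markers to 18.1 to 28.2 CPM in TNTProx1 4 to 6, 18.3 to 33.6 CPM in TNTProx1 1 to 3 and 19.9 to 44 CPM in TNTSham. No marker of any of these lists was at 0 in all 13 libraries, and edgeR and DESeq2 called 0 genes of these lists and of the companion lists above. At an unadjusted p under 0.05 in the edgeR test, 5 of 7 macrophage, 2 of 7 fibroblast and 1 of 5 erythroid markers tested were higher in TNTProx1, and 2 of 6 T cell and 1 of 6 suprabasal markers were lower, beside 8.33% of all genes higher and 3.92% lower. The part of cell mixture in the histone values was not tested.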

How the data were processed

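The deposited table holds raw read counts per gene for 13 libraries, each mapped to its sample by column name, with 0 further columns of values. Per the submitters' processing notes the tools named are fastp 0.20.1, HISAT2 2.2.1, featureCounts of Subread 2.0.2, DESeq2 1.34.0 and R 4.1.2, with the build GRCm39. The annotation release, strand setting and treatment of multi-mapping reads were not given in the sources used here. Gene symbols, classes and sequences came from GENCODE M21 and RefSeq on GRCm38, another build than that of the counts, and were joined by gene identifier: 52081 of 55357 rows matched.

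The main test was the edgeR 4.0.16 quasi-likelihood test (R 4.3.3) on the counts as deposited, TNTProx1 against TNTSham over all 13 libraries with no covariate. It used TMM scaling, the default low-count filter by group (22876 genes kept) and Benjamini-Hochberg adjustment over all genes tested. Each SE given was derived from that test, as the absolute log2 fold change divided by the square root of the F statistic. The same steps were tested on simulated data. Alternatives used DESeq2 1.42.0, limma 3.58.1 voom with quality weights, other scalings and filters, a covariate, 1 library left out in turn, and TNTProx1 4 to 6 left out. Members and lists were chosen with earlier results of these data known, and no set test was run. The genes named are, in each subfamily, the 3 tested members of highest mean CPM and the one of smallest p, the members listed as polyadenylated, Mki67, and in each companion list the 2 of smallest p; others named (Hist1h1a, Hist1h1b, Hist1h1t, Hist1h2aa, Hist1h2bh, Hist2h4, Slbp and single cell type markers) were chosen after their values were seen.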

Additional observations from a re-analysis of the deposited data

Results flagged for a closer look

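A check for single libraries far from the rest of their group was run on 86 combinations of a reported value and a group. It marked 3, where chance alone marks about 1 in 20, and none was a histone member. Tut7, the uridylyl transferase of histone RNA decay, was at 246 CPM in TNTProx1 1, with the next TNTProx1 library at 199 CPM. Rpph1, the ribonuclease P RNA, was at 1346 CPM in TNTSham 7, with the next TNTSham library at 609 CPM. Xist, the long RNA of the inactive X chromosome, was at 2095 CPM in TNTSham 1, with the next TNTSham library at 2.01 CPM. In TNTSham 1 the histone members took 0.0254% of counts, inside the range of 0.0166 to 0.0369% over all 7 TNTSham libraries. The cause of these 3 values was not tested.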

How the results depend on the processing

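Of the values recomputed, 335 under other settings and 488 with 1 library left out kept their direction and their side of the threshold. Under other settings 31 reversed, 11 passed the threshold only there and 3 moved, and with 1 library left out the numbers were 8, 10 and 1. The number of members called was 0 except with the DESeq2 Wald test, which called 33, and leaving out 1 library in turn gave 0 to 30, the highest without TNTProx1 1. The members' median log2 fold change was 1.45 to 2.13 with 1 library left out. It was 0.58 with limma voom and quality weights, 0.31 with the TEC share as a covariate and -0.15 without TNTProx1 4 to 6. The share of counts on histone members differed by 0.0291 to 0.0514 percentage points with 1 library left out and by -0.0037 without TNTProx1 4 to 6. Mki67 stayed below 0 in all settings, from -0.30 to -0.01 with 1 library left out. Without TNTProx1 4 to 6 the log2 fold changes that turned sign were Hist1h1c -0.25, Hist1h1e -0.30, Hist1h1d -0.15, Hist3h2a -0.13, Hist2h2aa2 -0.036, Hist2h2aa1 -0.072, Hist1h2bc -0.20, Hist2h2bb -0.61, Hist1h2bg -0.15, Hist1h2bn -0.16, Hist1h3f -0.23, Hist1h3b -0.15, Hist1h4d -0.14, Hist1h4c -0.14, Hist4h4 -0.45, H2afz -0.19, Rbbp7 -0.044, Daxx -0.015, Pold1 -0.047, Ccnb2 -0.19, Rpph1 -1.33 and Malat1 0.28. Hist2h2bb was also -0.017 with upper quartile scaling, -0.38 with voom, -0.46 with the TEC share and -0.19 to 0.18 with 1 library left out. Hist2h2be ranged from -0.19 to 0.062 in the same way. With voom Ccnb2 was -0.0079 and Rpph1 -0.058, and with the TEC share Hist1h1e was -0.0033 and Rpph1 -0.39. The cause of these changes was not tested. No paired analysis was possible because replicate numbers were given in accession order and name no pairs. Counts of the lowest members limit their precision: Hist1h2af had under 1 CPM in all 10 libraries other than TNTProx1 4 to 6.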

Other observations

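Histone pseudogenes, left out of the members, held counts in the same libraries. Hist1h2al had 0.129, 0.283 and 1.17 CPM in TNTProx1 1 to 3, 9.95, 8.49 and 8.04 CPM in TNTProx1 4 to 6 and 0.132 to 1.27 CPM in TNTSham. Hist1h2aj had 0.0259, 0.257 and 0.468 CPM in TNTProx1 1 to 3, 3.40, 5.30 and 6.42 CPM in TNTProx1 4 to 6 and 0.0292 to 0.786 CPM in TNTSham. Hist3h2bb-ps, from the cluster on chromosome 11, had 0.207, 0.360 and 0.234 CPM in TNTProx1 1 to 3, 0.0901, 0.460 and 0.752 CPM in TNTProx1 4 to 6 and 0.131 to 0.414 CPM in TNTSham, so the sets overlapped. Annotation as a pseudogene was taken from GENCODE M21.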
